A study of Mus musculus with 19 samples.

Results

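The transcripts of 10 mouse liver genes whose expression depends on growth hormone and the transcription factor STAT5 are described here across 10 liver tumours. The genes are Mup3, Mup20, Mup21, Hsd3b5, Elovl3, Slco1a1, Cyp7b1, Cyp4a12a, Socs2 and Cish, and all 10 were found by identifier among the 39179 genes of the count table. They were chosen by name with their levels and their spread over these tumours already known, so both are given as a description, without a test. The study asked how end-stage tumours of one mouse model differ between tumours and between mice. It profiled 19 liver samples by RNA-seq of polyadenylated RNA, comprising 13 tumours, 3 controls and 3 high AAV controls. All 19 samples came from male mice that were heterozygous for Ctnnb1tm1Mmt, an allele from which Cre removes a regulatory exon of β-catenin, and homozygous for Gt(ROSA)26Sortm1(MYC)Djmy, a MYC transgene that Cre switches on. Cre came from the vector AAV8.TBG.PI.Cre.rBG, whose TBG promoter is active in hepatocytes, at 640000000 genome copies per mouse in tumours and controls and at 200000000000 in high AAV controls. The age of the mice is not in the labels. A column of the table could be tied to 1 sample for Tumours 04 to 13 only, so the level of these genes in control liver was not analysed here.

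The pituitary of male mice releases growth hormone in pulses. Each pulse activates the receptor Ghr on hepatocytes, the kinase Jak2 bound to it, and then STAT5, chiefly STAT5B, which enters the nucleus and induces its target genes. Many genes that the male liver expresses more strongly than the female liver, among them the major urinary proteins and several cytochrome P450 enzymes, need this pulsed signal. Socs2 and Cish are induced by STAT5 in both sexes and encode proteins that bind the activated receptor and dampen the signal.

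The 10 libraries held between 11687034 and 36964427 counts, with a median of 16664597, and 3 counts corresponded to between 0.0812 and 0.257 CPM, the count of a gene scaled to the size of its library. Levels are CPM scaled with TMM factors, and spread is the standard deviation (SD) of log2 CPM. The column names carry a tag with 5 values, RMH4_5b for tumour 04, RMH4_5c for tumours 05 and 06, RMH18_1d for 07 and 08, RMH35_1b for 09 and 10, and RMH35_1c for 11 to 13. Its meaning is not explained in the labels, and tumours that share a tag may come from 1 mouse and so may not be independent. The tissue label was checked against 10 hepatocyte markers, whose summed level lay between 33962 CPM in tumour 05 and 51398 CPM in tumour 12. The median SD of these markers was 0.45, but it was above 1 for 2 of the 10, Cps1 (2.04) and Serpina1c (1.98). Cps1 lay between 4.54 CPM in tumour 05 and 228 CPM in tumour 12, and Serpina1c between 0.895 and 126 CPM in the same tumours. Markers of other cell types were present in every tumour and unevenly spread, the summed blood markers between 104 and 5931 CPM (highest in tumour 07) and the summed endothelial markers between 33.3 and 282 CPM (highest in tumour 07). Tumours 05, 06 and 07 also stood apart by short RNA polymerase III transcripts, which summed to between 47 and 80.3 CPM there, against 1.72 to 6.38 CPM in the remaining 7. In bulk RNA, fewer hepatocytes in a tumour and less RNA of a gene per hepatocyte cannot be told apart.

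Per kilobase of exon, the highest mean level belonged to Cyp4a12a, with 39.8 CPM per kilobase (RPKM), followed by Slco1a1 with 26.8, Mup20 with 25.9 and Mup3 with 23.9 RPKM. Cyp7b1 had a mean of 5.32, Cish of 2.72, Elovl3 of 1.86, Mup21 of 1.2, Socs2 of 1.11 and Hsd3b5 of 0.37 RPKM. The length used joins the exons of all annotated transcripts of a gene, 15258 bases for Socs2 and 979 for Mup21, so this order depends on the annotation. In CPM, the mean was 16.9 for Socs2 and 1.18 for Mup21. Reads that align to several places were not counted, which can lower the values of genes with near copies such as Cyp4a12a and Mup20. Most neighbours in this order were not separated beyond the spread between tumours. Slco1a1 exceeded Mup20 in 5 of 10 tumours, Mup20 exceeded Mup3 in 6, Cish exceeded Elovl3 in 6 and Mup21 exceeded Socs2 in 4. The steadiest steps were Socs2 over Hsd3b5, in 9 of 10 tumours, and Cyp4a12a over Slco1a1, Cyp7b1 over Cish and Elovl3 over Mup21, each in 8 of 10.

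Spread between tumours was large for most of these genes. The SD of log2 CPM was above 1 for 6 of 10, Mup3 (2.57), Mup20 (2.49), Hsd3b5 (1.72), Mup21 (1.60), Cyp4a12a (1.46) and Cish (1.19), beside 9.87% of all 14704 genes with at least 100 counts in total. The median SD was 1.32 over the 10 genes and 0.38 over all genes tested. Elovl3 lay at the limit with 1.00, and Cyp7b1 (0.88), Socs2 (0.85) and Slco1a1 (0.69) were below it. All 10 genes passed the limit of 100 counts. The list was drawn up with such values known, so nothing is read from this excess.

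**Figure D1:**
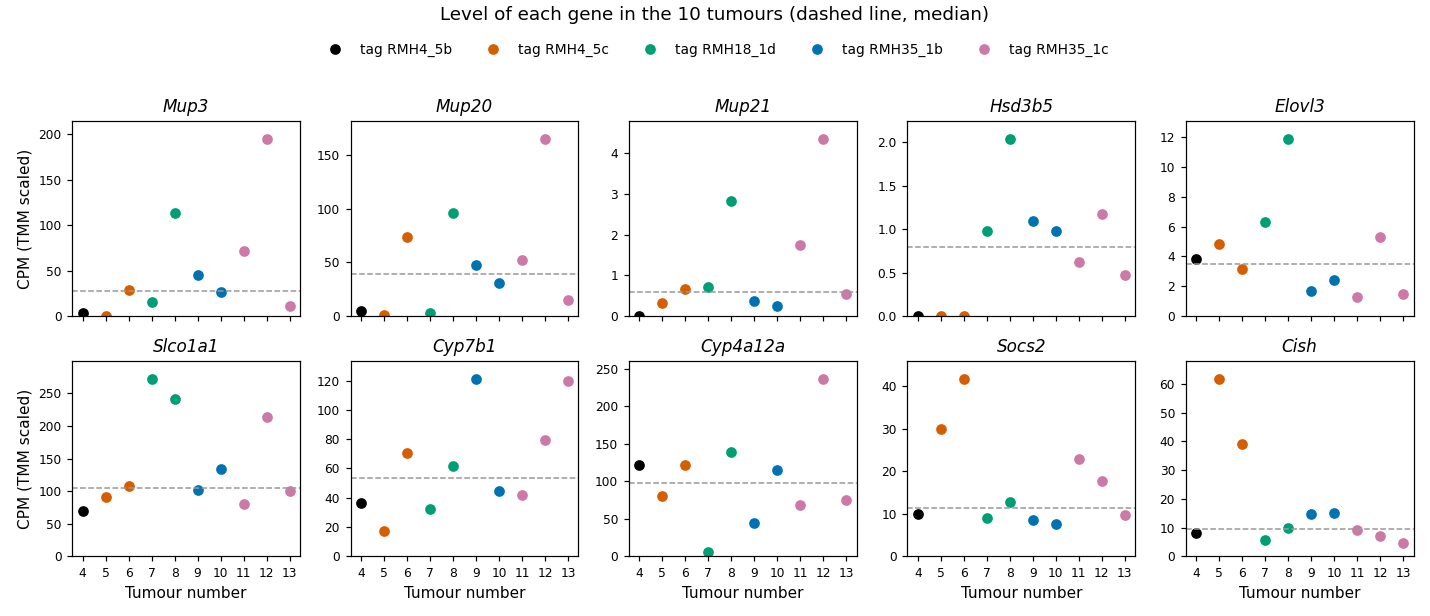
Level of each of the 10 genes by tumour, with the tumour number on the horizontal axis and TMM-scaled CPM on a vertical axis that starts at 0 in each panel. Points are single tumours coloured by tag and the dashed line is the median. Mup3, Mup20, Mup21 and Cyp4a12a peak in tumour 12, Hsd3b5 and Elovl3 in tumour 08, and Socs2 and Cish in tumours 05 and 06.

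The major urinary proteins (MUPs) are small lipocalins that hepatocytes secrete and that carry pheromones into male urine. Mup3 lies at chr4:62083476-62087317, Mup20 at chr4:62011337-62054143 and Mup21 at chr4:62147832-62150841 (positions here and below are those of RefSeq on GRCm38.p6). Mup3 was at 2.91 CPM in tumour 04, 0.384 in 05, 28.5 in 06, 14.9 in 07, 113 in 08, 44.9 in 09, 26.6 in 10, 71.6 in 11, 195 in 12 and 11.1 in 13. Its mean was 50.8 ± 61.3 CPM (SD, n = 10). The highest and lowest tumours differed 508-fold, and the lowest rested on 6 counts against 5675 in the highest. Tumours 04 and 05 were far below the rest, and tumours 08 and 12 above it. Members of 1 tag spanned most of this range, from 11.1 to 195 CPM among the tumours of RMH35_1c and from 0.384 to 28.5 CPM among those of RMH4_5c.

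Mup20, which encodes darcin, the MUP that attracts females to male scent, was at 4.65 CPM in tumour 04, 0.767 in 05, 73.9 in 06, 2.39 in 07, 95.5 in 08, 47.7 in 09, 31.1 in 10, 52.1 in 11, 165 in 12 and 15.3 in 13. Its mean was 48.9 ± 51.9 CPM (SD, n = 10), with a 215-fold range. The order of tumours was close to that of Mup3, except that tumour 07 was among the 3 lowest. The ratio of Mup20 to Mup3 counts was 0.161 in tumour 07, from 27 and 168 counts, and between 0.728 and 2.59 in the other 9.

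Mup21 was far less abundant, with a mean of 1.18 ± 1.4 CPM (SD, n = 10), a median under 1 CPM and a highest value of 4.36 CPM in tumour 12. Tumour 04 held 0 counts, which allows up to 0.21 CPM. Tumours 08 (2.82 CPM) and 11 (1.75 CPM) followed tumour 12, and the other 7 tumours were at 0.709 CPM or less. These values rest on 268 counts over the 10 tumours.

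Of the 3 MUP genes described here, Mup3 and Mup21 had a RefSeq entry for the bases before the start, and these stretches can be set side by side because the sequences are near copies. The windows are the 250 bases upstream of the annotated start on GRCm38.p6, both on the minus strand, at chr4:62087318-62087567 for Mup3 and chr4:62150842-62151091 for Mup21. Capitals mark TATATAA, the only match to that motif in each window.
Mup3: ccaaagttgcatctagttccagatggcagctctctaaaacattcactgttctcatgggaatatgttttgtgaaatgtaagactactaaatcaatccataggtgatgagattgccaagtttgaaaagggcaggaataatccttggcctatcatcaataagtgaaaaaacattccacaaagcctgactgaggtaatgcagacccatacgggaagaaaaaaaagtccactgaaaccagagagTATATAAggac
Mup21: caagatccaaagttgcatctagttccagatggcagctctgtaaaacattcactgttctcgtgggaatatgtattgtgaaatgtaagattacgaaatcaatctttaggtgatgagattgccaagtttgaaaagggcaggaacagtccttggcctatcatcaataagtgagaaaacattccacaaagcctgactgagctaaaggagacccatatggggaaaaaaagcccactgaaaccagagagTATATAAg
The aligned windows were identical at 229 positions, with 15 mismatches and 12 gap positions, which is 89.5% identity. The first base of TATATAA lay 11 bases before the start in Mup3 and 8 bases before it in Mup21, and 3.04% of the 32851 RefSeq windows of this length hold the motif on either strand. The motif TTCNNNGAA, the core that STAT5 dimers recognise, occurred in none of the windows of Mup3, Mup21, Hsd3b5, Slco1a1 and Cish, the 5 genes with an entry, and in 7.02% of all windows. That count says only that these letters are not in these stretches.

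Mup3 and Mup20 were the pair of the 10 genes that varied most alike, with Pearson's r of 0.911 and Spearman's rho of 0.927 over the 10 tumours. Among the 7 tumours with few RNA polymerase III transcripts their r was 0.995. Mup21 correlated with Mup3 at 0.731 and with Mup20 at 0.616, as a description over the same libraries. The non-member gene most like Mup3 among 14704 was Serpina1c (r = 0.976, n = 10), a hepatocyte α1-antitrypsin gene, which was lowest in tumour 05 (0.895 CPM) and highest in tumour 12 (126 CPM). The gene most like Mup20 was the pseudogene Mup-ps22 (r = 0.97), whose sequence resembles MUP genes. The summed hepatocyte markers were also lowest in tumour 05 and highest in tumour 12, over a 33962 to 51398 CPM range, and their part in the MUP levels was not tested.

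The other MUP genes were nearly absent from the counts. Of 18 that matched the table, 15 stayed at or under 1 CPM in every tumour and 2 were not counted at all. Mup5 had a mean of 1.04 CPM with a highest value of 3.26 CPM in tumour 12, and Mup8 a mean of 0.522 CPM with a highest value of 1.69 CPM in tumour 11. The MUP genes are a cluster of near copies on chromosome 4, and reads that align to several places enter no gene in this table. Such reads were between 45.4 and 57.9% of the entries of a library, summary lines included. Cutting the annotated transcripts into stretches of 36 bases, the read length in the study's methods, showed how much of each gene is its own. Of these stretches, 89% occurred in no other gene for Mup3, 79.6% for Mup21 and 60.4% for Mup20, whereas 15 of the 18 other MUP genes had between 2.77 and 20.8%. The highest level of any of these 15 was 1.69 CPM. Mup4, Mup5 and Mup6 were mostly unique too and still reached at most 3.26 CPM. The levels of the 15 shared genes are therefore not comparable with those of Mup3 and Mup20.

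**Figure D2:**
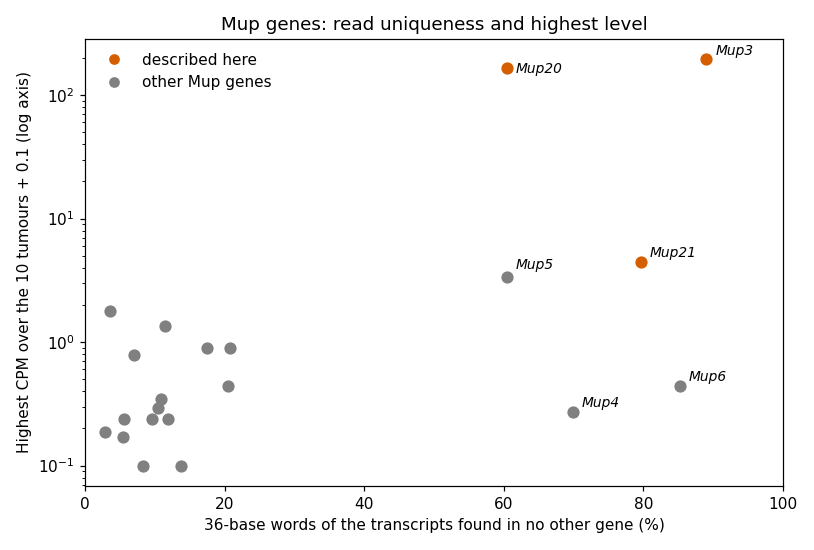
Share of 36-base stretches of each MUP gene's transcripts that occur in no other gene (horizontal axis, percent) against its highest level over the 10 tumours (vertical axis, CPM + 0.1, log scale). Orange points are Mup3, Mup20 and Mup21 and grey points are the other 18 MUP genes, of which 15 lie between 2.77 and 20.8%.

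Cyp4a12a, a cytochrome P450 that hydroxylates fatty acids and is typical of the male liver (chr4:115299046-115332815), was at 121 CPM in tumour 04, 79.9 in 05, 122 in 06, 5.67 in 07, 139 in 08, 44.5 in 09, 115 in 10, 68.4 in 11, 236 in 12 and 75 in 13. Its mean was 101 ± 62.4 CPM (SD, n = 10). Tumour 07 stood alone at the low end, 41.5-fold below tumour 12, and the other 9 tumours lay between 44.5 and 236 CPM. Cyp4a12b, its near copy, was at 42 CPM in tumour 07 and between 26 and 82.4 CPM over all 10. The ratio of Cyp4a12a to Cyp4a12b counts was 0.135 in tumour 07, from 64 and 474 counts, and between 1.33 and 3.78 elsewhere. Only 46.4% of the 36-base stretches of Cyp4a12a occur in no other gene, so the division of reads between the copies is uncertain.

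Tumour 07 had the highest blood, endothelial and RNA polymerase III sums and the fewest counts of the 10. The hepatocyte marker sum in tumour 07 was 42033 CPM, near the median of 41582. The part of these differences in the low Cyp4a12a and Mup20 values of tumour 07 was not tested.

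Slco1a1, an organic anion transporter of the sinusoidal membrane (chr6:141907281-141946962), had the narrowest spread of the 10 genes. It was lowest at 70.2 CPM in tumour 04 and highest at 272 CPM in tumour 07, with 241 CPM in 08 and 214 CPM in 12, and its mean was 141 ± 73 CPM (SD, n = 10). The other 7 tumours lay at or below 134 CPM. Both tumours of tag RMH18_1d (07 and 08) were above every other tumour, as held for 1.64% of all genes tested, but the difference between tags did not pass the adjusted test described below.

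Cyp7b1, the oxysterol 7α-hydroxylase of the alternative bile acid pathway (chr3:18071944-18243890), was lowest at 17.3 CPM in tumour 05 and highest at 121 CPM in tumour 09, close to 120 CPM in tumour 13. Its mean was 62.7 ± 35.7 CPM (SD, n = 10) and its range 6.99-fold. Tumours 09 and 13, the highest for Cyp7b1, were not the highest for any other of the 10 genes.

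Elovl3, which elongates very long chain fatty acids (chr19:46131897-46135694), was lowest at 1.25 CPM in tumour 11 and highest at 11.9 CPM in tumour 08, with a mean of 4.22 ± 3.21 CPM (SD, n = 10). Tumour 07, at 6.29 CPM, came next. Elovl3 and Slco1a1 shared their high values in tumours 07, 08 and 12 (r = 0.688, rho = 0.624).

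Hsd3b5, a 3-ketosteroid reductase of the male liver (chr3:98618636-98645534), was near the limit of detection. The 10 tumours held 153 counts in all and at most 42 in 1 tumour. No count was found in tumours 04, 05 and 06, which allows up to 0.21, 0.187 and 0.174 CPM there, and the other 7 held between 0.476 and 2.04 CPM, with the highest in tumour 08. The 3 tumours without a count are those whose tag begins with RMH4, and no other tumour overlapped them, as held for 2.71% of all genes in this direction. With the first part of the tag as the grouping, Hsd3b5 had an adjusted p of 0.124 in edgeR. Of its 36-base stretches, 76.8% occur in no other gene.

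Cish and Socs2, the STAT5-induced feedback inhibitors at chr9:107296659-107302784 and chr10:95383903-95417321, showed another order of tumours. Cish was at 8.12 CPM in tumour 04, 61.7 in 05, 39.2 in 06, 5.58 in 07, 9.88 in 08, 14.6 in 09, 15 in 10, 9.05 in 11, 7.03 in 12 and 4.63 in 13. Tumours 05 and 06, which share the tag RMH4_5c, had a mean of 50.4 CPM and the other 8 tumours 9.24 ± 3.85 CPM (SD, n = 8), a 5.46-fold ratio. The lower of the former, 39.2 CPM, was above the highest of the latter, 15 CPM, so they did not overlap. Of all 14704 genes, 7.88% had both of these tumours above all others, and tumours 05 and 06 were singled out after the values were seen.

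Socs2 was at 9.92 CPM in tumour 04, 29.9 in 05, 41.7 in 06, 8.95 in 07, 12.8 in 08, 8.43 in 09, 7.56 in 10, 22.9 in 11, 17.7 in 12 and 9.63 in 13. The mean of tumours 05 and 06 was 35.8 CPM and that of the other 8 was 12.2 ± 5.39 CPM (SD, n = 8), a 2.92-fold ratio, again without overlap. Cish and Socs2 correlated at r = 0.65 over the 10 tumours but at rho = 0.321. Among the 7 tumours with few RNA polymerase III transcripts, which leave out 05, 06 and 07, their r was -0.325. The likeness of the pair was thus not seen without those tumours.

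Tumours were next compared by tag, which asks whether tumours with different tags differ by more than tumours that share one. In edgeR's quasi-likelihood F test over the 5 tags, 1 of the 10 genes, Cish, passed a false discovery rate of 0.05 (F = 23.8, unadjusted p = 9.21e-05, adjusted p = 0.0276 over 14704 genes), beside 0.816% of all genes tested. At an unadjusted p under 0.05, 5 of the 10 were counted beside 14.5% of all genes. Beside Cish these were Hsd3b5 (adjusted p = 0.0815), Socs2 (0.12), Mup21 (0.263) and Slco1a1 (0.285) in edgeR's test. Elovl3 (adjusted p = 0.387), Mup3 (0.586), Cyp7b1 (0.74), Mup20 (0.835) and Cyp4a12a (0.968) had the higher values in that edgeR test. For the genes with the largest spread the F statistic was 1.67 (Mup3) and 0.653 (Mup20), against 23.8 for Cish.

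The Cish result depended on single tumours and on the way tags were formed. Its adjusted p in edgeR was 0.212 without tumour 05, 0.0557 without 06, 0.077 without 11, 0.0781 without 12 and 0.0538 without 13. It was 0.25 with the 3 first parts of the tag in place of the 5 tags, and 0.759 without tumours 05, 06 and 07. DESeq2's likelihood ratio test called 5 of the 10 genes, Cish, Socs2, Hsd3b5, Mup21 and Slco1a1, with adjusted p values of 7.59e-14 for Cish, 0.00013 for Socs2 and 0.000503 for Hsd3b5. DESeq2 called 1375 of all genes (9.35%) where edgeR called 120.

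Tumours 05 and 06 also had the highest acute phase sum, over 10 genes that inflammation induces in hepatocytes. It was 11209 CPM in tumour 05 and 29196 CPM in tumour 06, and between 3855 and 7008 CPM in the other 8. Lcn2, a siderophore-binding protein, was at 488 and 1556 CPM in these tumours and at most 109 CPM elsewhere, and Fgb, a fibrinogen chain, at 5711 and 12815 CPM and at most 2142 CPM elsewhere. Both passed the test between tags (edgeR adjusted p = 0.0386 and 0.0461), the only 2 of the 10 acute phase genes to do so, beside 0.816% of all genes. At an unadjusted p under 0.05 there were 8 of the 10 in edgeR (14.5% of all genes), and DESeq2 called 7 (9.35% of all genes). Tumour 06 was highest for 9 of the 10 acute phase genes, whereas tumour 05 did not exceed all of the remaining tumours for each gene. Haptoglobin (Hp) in tumour 05, 4284 CPM, was below the 4614 CPM of tumour 12, and Orm1, at 90.5 CPM, was below 3 other tumours besides tumour 06. Within the pair the order was not the same, since Cish was higher in tumour 05 and the acute phase sum and Socs2 in tumour 06. The part of the acute phase signal, or of the RNA polymerase III transcripts that were also high in 05 and 06, in the Cish and Socs2 levels was not tested. In tumour 07, where those transcripts were higher still, Cish was at 5.58 CPM and Socs2 at 8.95 CPM.

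**Figure D3:**
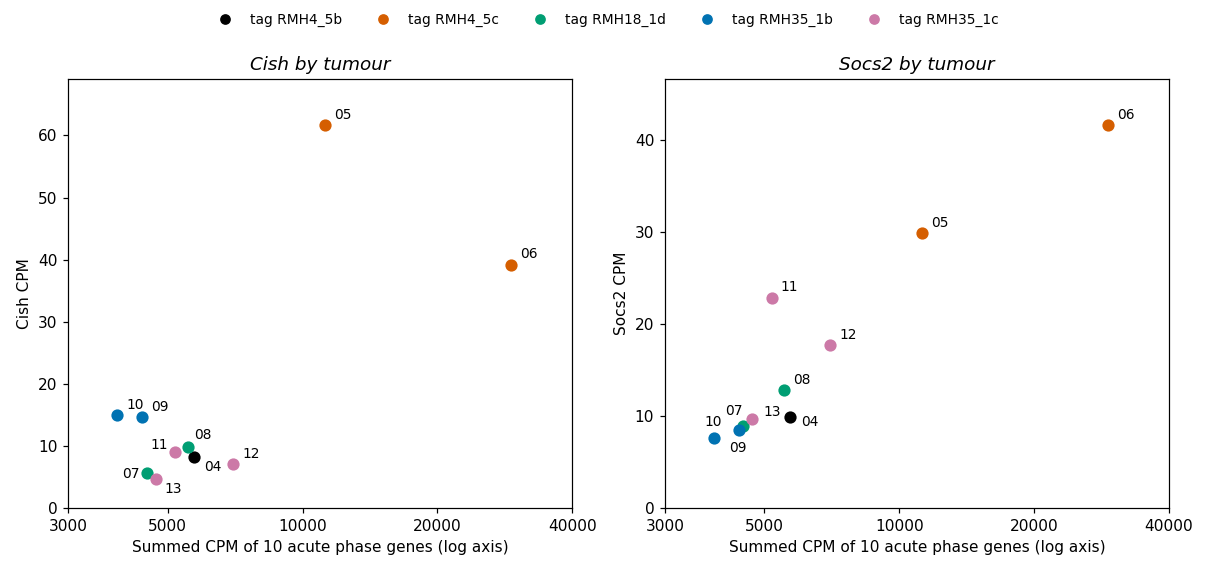
Cish (left) and Socs2 (right) in CPM against the summed CPM of 10 acute phase genes on a log axis, 1 point per tumour with its number and coloured by tag. Tumours 05 and 06 lie above all others on both axes, from 11209 CPM on the horizontal axis.

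The deviations of each tumour from each gene's median show how the tumours were ordered over the whole list. Tumour 08 was above the median for 10 of 10 genes and tumour 12 for 9 of 10, and these hold the highest value for 6 of the 10 genes between them. Tumour 13 was above the median for 1 gene, Cyp7b1, and tumour 04 for 2, while tumour 05 was above it for 3, Elovl3, Socs2 and Cish. Tumour 05 thus combined the lowest Mup3, Mup20 and Cyp7b1 with the highest Cish. Tumour 06, which shares its tag, was at 8 of 10 above the median and differed from tumour 05 most in Mup3 and Mup20.

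**Figure D4:**
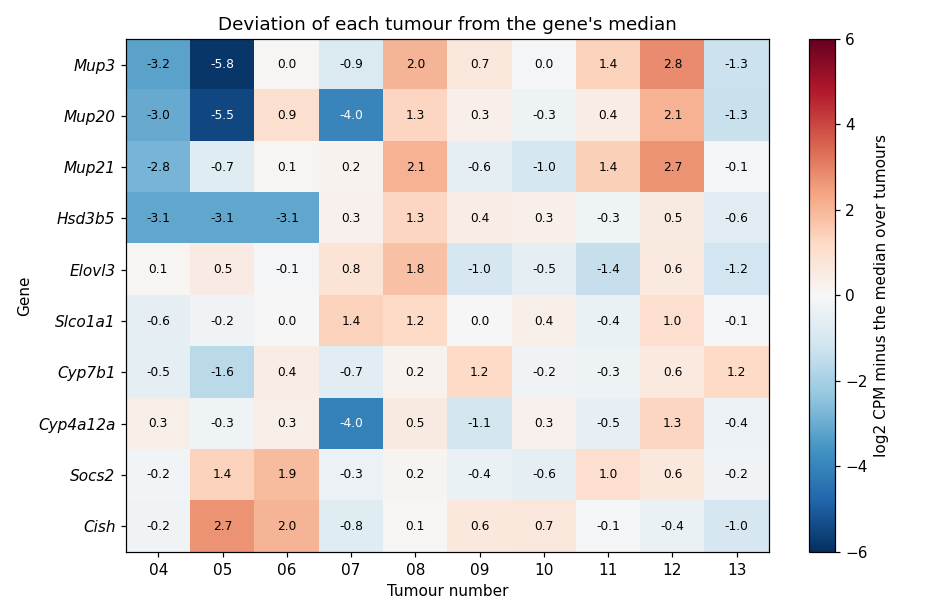
Deviation of log2 CPM from the gene's median over the 10 tumours, with genes in rows, tumours in columns and the value written in each cell. Blue is below and red above the median, and Mup3 and Mup20 are lowest in tumour 05 while Cish and Socs2 are above the median there.

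Over all 45 pairs of the 10 genes, 31 had a positive and 14 a negative Pearson's r. Mup3, Mup20, Mup21 and Hsd3b5 were positively correlated with one another, with r of 0.742 for Mup3 and Hsd3b5. Cyp7b1 varied most like Mup20 (r = 0.713, rho = 0.612), and Hsd3b5 and Slco1a1 had an r of 0.662. Over the 10 tumours Cyp4a12a had no r above that with Mup20 (0.517) among the 10 genes. The lowest r was that of Cish and Hsd3b5 (-0.581), with a rho of -0.202, and it turned to 0.312 among the 7 tumours left without 05, 06 and 07. Among those 7 the r of Mup20 was 0.277 with Cyp7b1 and 0.284 with Cyp4a12a, whereas Cyp4a12a had an r of 0.738 with Elovl3 and 0.63 with Slco1a1. The points share libraries and depth, so these values carry no test.

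**Figure D5:**
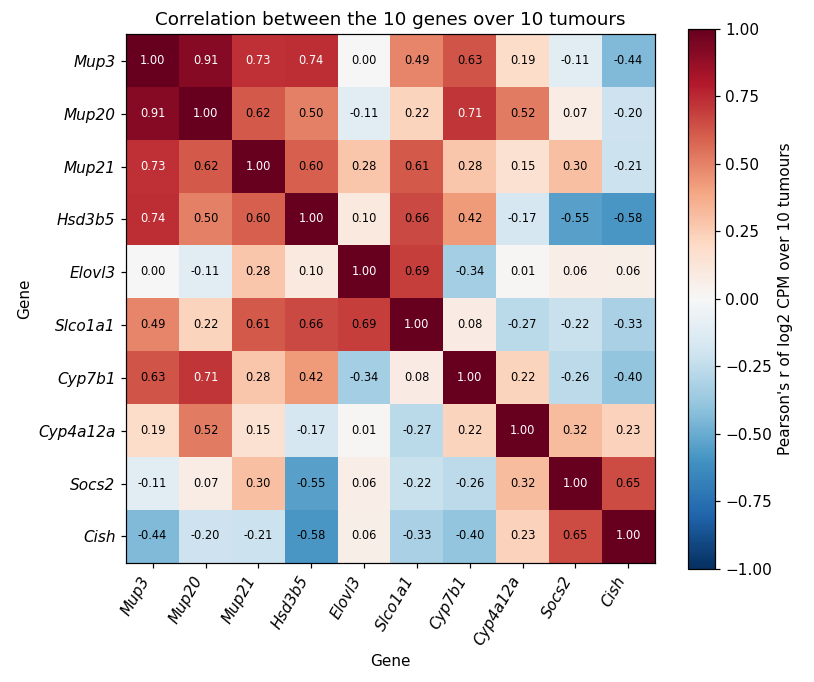
Pearson's r of log2 CPM over the 10 tumours for each pair of the 10 genes, written in each cell (red positive, blue negative, scale from -1 to 1). Mup3 and Mup20 have the highest r, 0.911, and the lowest, -0.581 for Cish and Hsd3b5, turned to 0.312 without tumours 05, 06 and 07.

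For each of the other genes the non-member most like it over the 10 tumours was also sought among the 14704. It was Wrap73 for Mup21 (r = 0.93), Tbcel for Hsd3b5 (0.93), Txnrd3 for Elovl3 (0.883), Tfdp2 for Slco1a1 (0.926) and the pseudogene Gm12346 for Cyp7b1 (0.946). It was Vkorc1l1 for Cyp4a12a (0.969), Atxn7l2 for Socs2 (0.936) and Ldha, lactate dehydrogenase, for Cish (0.962, between 627 and 1493 CPM). For Mup3 and Mup20 the nearest of the 10 genes ranked 9 and 15 in this search, and for the other 8 genes it ranked between 90 and 2042. These ranks count the gene itself as the first.

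Ghr and Stat5b, upstream of all 10 genes, varied less than most of them. Ghr lay between 101 CPM in tumour 06 and 336 CPM in tumour 12 (SD 0.52), and Stat5b between 73 CPM in tumour 12 and 162 CPM in tumour 05 (SD 0.36). Jak2 had a mean of 14 CPM (SD 0.24) and Stat5a of 43.8 CPM (SD 0.32). Socs3, an inhibitor that cytokines induce and that also stands in the acute phase list, was highest at 140 CPM in tumour 05, the tumour with the highest Cish, and lowest at 14.3 CPM in tumour 12 (adjusted p = 0.149 in edgeR). Stat3 was highest in tumours 05 and 06 (375 and 366 CPM, adjusted p = 0.109 in edgeR), and Socs1 had a mean of 0.678 CPM.

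Of 8 tested genes that STAT5 induces or that act with it as transcription factors, 0 passed the edgeR test and 1, Bcl6, had an unadjusted p under 0.05. DESeq2 called 1 of them, Bcl6. Of all genes tested, 14.5% had such a p and DESeq2 called 9.35%. Igf1, the circulating mediator of growth hormone, was between 13.1 CPM in tumour 10 and 121 CPM in tumour 04 (SD 1.30), and tumour 05 was among the low ones at 14.1 CPM. Bcl6, a repressor that competes with STAT5 for sites, was between 14.6 CPM in tumour 06 and 70.5 CPM in tumour 12. Onecut1 (SD 1.11) was also highest in tumour 12, at 6.59 CPM, whereas Hnf4a (mean 747 CPM) and Rxra (mean 570 CPM) were steadier, with SDs of 0.21 and 0.32.

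The 10 genes were correlated with Ghr, Stat5b, Bcl6, Igf1 and Socs3 over the tumours, 50 pairs in all, by two-sided permutation tests with 100000 resamples. With Benjamini-Hochberg adjustment over the 50 pairs, 0 passed 0.05 by Pearson's r or by Spearman's rho, and 6 had an unadjusted permutation p under 0.05 by r. The smallest p belonged to Mup20 and Stat5b, with r = -0.802 (permutation p = 0.00439, adjusted p = 0.219) and rho = -0.636 (permutation p = 0.0526, adjusted p = 0.673). Without tumours 05 and 12, the farthest from the median of Stat5b, r was -0.551 (exact permutation p = 0.166, n = 8). Mup3 and Stat5b had r = -0.766 (permutation p = 0.0088, adjusted p = 0.22) and rho = -0.624 (permutation p = 0.0581, adjusted p = 0.673), with r = -0.382 without tumours 05 and 12 (exact permutation p = 0.351, n = 8). Cyp7b1 and Stat5b had r = -0.721 (permutation p = 0.0192, adjusted p = 0.255) and rho = -0.697 (permutation p = 0.0304, adjusted p = 0.673), with r = -0.499 without those tumours (exact permutation p = 0.204, n = 8). Leaving out the extremes also narrows the range of Stat5b, so the smaller r does not show that the relations rest on these tumours.

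Within the 7 tumours with few RNA polymerase III transcripts, r with Stat5b was -0.557 for Mup20 (exact permutation p = 0.192, n = 7), -0.537 for Mup3 (exact permutation p = 0.214, n = 7) and -0.39 for Cyp7b1 (exact permutation p = 0.358, n = 7). After subtraction of tag means r was -0.814 for Mup20 and -0.919 for Mup3, each with an exact permutation p of 0.0417 over the 48 rearrangements within tags, and -0.576 for Cyp7b1 (exact permutation p = 0.354). The same p belonged to Hsd3b5 with Ghr (r = 0.949), Mup21 with Stat5b (r = -0.714) and Hsd3b5 with Stat5b (r = -0.5), and these within-tag exact permutation p values are not adjusted for the 50 pairs. Hsd3b5 had 0 counts in tumours 05 and 06, so exchanging them changed nothing and 0.0417 was its smallest possible exact permutation p. Its count was also 0 in tumour 04 and at most 42 in any tumour. Cish and Ghr, with r = -0.71 over the 10 tumours (permutation p = 0.0215, adjusted p = 0.255), had r = 0.724 within tags (exact permutation p = 0.167). Cyp7b1 and Igf1, another pair with an unadjusted permutation p under 0.05, had r = 0.666 (permutation p = 0.038, adjusted p = 0.317). With 1 tumour left out at a time, no pair passed in 8 of 10 runs. Without tumour 05, r with Stat5b was -0.662 for Mup20 (adjusted permutation p = 0.818). It was -0.565 for Mup3 and -0.521 for Cyp7b1 in that run (adjusted permutation p = 0.985 for both). Without tumour 08, the pairs of Stat5b with Mup20 (r = -0.936, adjusted permutation p = 0.0095) and Mup3 (r = -0.911, adjusted permutation p = 0.022) passed. Without tumour 07, Cish with Socs3 passed (r = 0.906, adjusted permutation p = 0.047). Over all 10 tumours that pair had r = 0.69 (permutation p = 0.0255, adjusted p = 0.255) and rho = 0.515 (adjusted permutation p = 0.876), and within tags its r was 0.0492 (exact permutation p = 0.958).

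Other genes with higher expression in male liver were given as a list of 12, of which 11 were tested and 0 passed the edgeR test between tags, with 2 at an unadjusted p under 0.05 and 2, Selenbp2 and Susd4, called by DESeq2, beside 14.5% and 9.35% of all genes by the same limits. The SD was above 1 for 6 of the 11, with a median of 1.09, beside 9.87% and 0.38 for all genes tested. Serpina1e, an α1-antitrypsin gene of the male liver, had the largest (2.01), from 0.959 CPM in tumour 05 to 119 CPM in tumour 08, with 112 CPM in 12 and 12.2 CPM in 11. Cyp2d9, a steroid 16α-hydroxylase, was at 34.9 CPM in tumour 07 and 754 CPM in tumour 08, C6 (complement) had a mean of 153 CPM, and C4a, the sex-limited complement protein, a mean of 1.77 CPM (SD 1.39). The summed level of the 12 was lowest in tumour 07 (318 CPM), where Cyp4a12a and Mup20 were also low, and highest in tumour 08 (1432 CPM).

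Of 26 genes that the female liver expresses more strongly, 11 never exceeded 1 CPM, 14 were tested and 0 passed the edgeR test between tags, with 3 at an unadjusted p under 0.05 and 1, Cyp2a4, called by DESeq2, beside 14.5% and 9.35% of all genes. Their SD was above 1 for 8 of the 14, with a median of 1.05. Sult2a1, a hydroxysteroid sulphotransferase, was lowest at 0.275 CPM in tumour 12 and highest at 44.3 CPM in tumour 10 (SD 2.06). Its relative Sult2a2 was likewise lowest in tumour 12 (1.92 CPM) and highest in tumour 10 (69.6 CPM). Cyp17a1 was at 253 CPM in tumour 09 and had a median of 31.5 CPM, and Prlr, the prolactin receptor, had a mean of 61.6 CPM. Other genes of the list had their highest value in tumour 12, among them Prlr (87.8 CPM), Atp6v0d2 (33.6 CPM) and Slc22a27 (4.26 CPM).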

How the data were processed

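Polyadenylated RNA was sequenced from 19 mouse liver samples, and 10 tumours are used here. The authors deposited raw counts per gene in 1 table, whose 5 summary lines were left out of library sizes. Per the submitters' processing notes, TopHat2, HTSeq and GRCm38 were used, without versions. The study's methods name other programs, and the strand setting is not given in the sources used here. Of 19 columns, 9 that match no single title were not used. Of 39179 identifiers, 34199 had a symbol.

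TMM factors and log2 CPM (prior count 2) came from edgeR 4.0.16 under R 4.3.3. Tags were compared by its quasi-likelihood F test on 14704 genes with at least 100 counts in total, adjusted by Benjamini-Hochberg at 0.05, with DESeq2 1.42.0 as an alternative. Correlations used Python 3.11.15 with scipy 1.17.1, and plots matplotlib 3.10.9. Exon lengths and transcripts came from GENCODE. RefSeq gave gene positions and the 250 bases before the start, held for 5 of 10 genes, on GRCm38.p6. The members and the gene lists were chosen with earlier results of these data known. Named genes were the members, the genes of a list past the threshold, its 2 highest by mean and its 2 largest by SD, and the gene most like each member; other genes named were chosen after their values were seen. Floors of 3 counts cover counting error only. No label says that tumours came from separate mice, so p values measure only the spread between these samples. Some items of the gene lists are not reported here.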

Additional observations from a re-analysis of the deposited data

Results flagged for a closer look

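The lowest Cyp4a12a value, 5.67 CPM in tumour 07, stood apart from the other 9 tumours. Its gap to the next tumour was 0.551 of the whole log2 range, the widest such gap among the 10 genes and wide enough to draw attention by Dixon's criterion, which chance meets in about 1 in 20 groups. The genes were chosen with their levels known, so this is a description and not a test. Cyp4a12a rests on 64 counts in tumour 07, against 733 counts in the next tumour by level.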

How the results depend on the processing

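The number of genes that differed between tags, 120 by edgeR, was 88 with DESeq2 size factors and 93 with edgeR's filterByExpr. It was 1375 by DESeq2's likelihood ratio test, 1188 of 24682 genes without a filter on low counts, 4 with the first part of the tag, and 6 without tumours 05, 06 and 07, an alternative chosen after seeing the data. Leaving out 1 tumour at a time gave between 11 and 172. Of the 10 genes described, 1 passed, against 5 by DESeq2 and 5 without a filter (Mup21, Hsd3b5, Slco1a1, Socs2 and Cish in both), 0 with the first part of the tag, 0 without tumours 05 to 07, and between 0 and 1 with 1 tumour left out. Without a filter Socs2 had an adjusted p of 0.00205 and Hsd3b5 of 0.0021 in edgeR. The cause of these shifts was not tested. The count of genes with an SD above 1 stayed at 6 or 7 in all 13 alternatives. The count of correlations that passed lay between 0 and 2 with 1 tumour left out, and was 0 with DESeq2 size factors, total counts or a prior count of 0.5. No paired analysis was possible because the tumours form 1 group and the columns of the controls could not be matched. Depth limits Hsd3b5 and Mup21, whose highest counts in a tumour were 42 and 127.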
